A study of Mus musculus with 10 samples.

Results

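The Toll-like receptors Tlr1 to Tlr9 and their co-receptor Cd14 were followed in the lungs of mice exposed to cigarette smoke. The 10 genes were taken by name, through every probe that carried one of these symbols or an accession of these genes, and 12 probes measured them among 41174 probes and 27670 genes in all. Lung RNA came from female mice of the inbred strain BALB/c, which were 6 to 8 weeks old on arrival, and each mouse had an array of its own. The smoke group held 5 mice, exposed 2 times daily for 50 minutes to 12 cigarettes on 5 days of every week over 8 weeks, and the control group held 5 mice kept in room air for the same time. The labels give no genetic change or drug in either group, and whole lung was used, so every value averages over all lung cells.

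Toll-like receptors recognise molecules shared by many microbes and some molecules released from damaged cells, and start inflammatory signalling through adaptor proteins that end on NF-kB and interferon regulatory factors. Those on the cell surface bind microbial lipids and proteins, and those in endosomes bind nucleic acids. In the lung they are found on macrophages, neutrophils, dendritic cells and epithelium. Cd14 has no signalling part of its own and hands lipopolysaccharide and other ligands to the receptors.

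Each array was read in 2 colours, and known genes show what each colour holds. Of 4 genes of the Y chromosome, Ddx3y, Eif2s3y and Kdm5d stood well above background in green on all 10 arrays and in red on 2, 0 and 1, and Uty did so on 0 in either colour. Scgb1a1, the secretory protein of club cells, was brighter in red than in green by 6.72 (log2). So red was read as the lungs of these females, green as a reference mixture with male RNA in it, and a level below is the log2 ratio of red over green, where 1 unit is a factor of 2. The table of processed values that the authors deposited holds the groups the other way round. All 286449 values in it equal, within 0.0001, those computed from the like-numbered scanner file of the opposite group. The scanner files were used as they are assigned to the samples, and every direction below rests on that assignment. In red, the share of spots well above background was 67.8 to 76.7% in room air and 64.9 to 77.5% with smoke.

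The letters of the probes show which part of each receptor was read and whether related receptors could have been mixed. Tlr1 and Tlr2 are printed because their probes were the most alike of the 55 pairs that could be compared. Both are given in full, with the letters they share in capitals at the alignment with the most identical letters.
Tlr1: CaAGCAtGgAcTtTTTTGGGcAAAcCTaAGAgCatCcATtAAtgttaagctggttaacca
Tlr2: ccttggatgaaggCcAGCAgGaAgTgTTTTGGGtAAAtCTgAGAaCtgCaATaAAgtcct
These probes shared 29 of 47 aligned letters, and their longest common run was 7 letters. Each has a single reading frame without a stop, and the frames coincide in the alignment. Over all pairs of the 11 probes compared the longest common run was 8 of 60 letters. The Tlr1 probe lies at chr5:64279687-64279746 and the Tlr2 probe at chr3:83941473-83941532, both on the minus strand of mm7, the build of the array files.

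Tlr4 had 2 probes that gave different results, and their first 30 letters are printed with those of Tlr6 and Tlr7, which are described below.
Tlr4 main probe: tgtgatagggctttaaatagttgagctaat
Tlr4 second probe: gaaccaagagaactttaacgcttacatctg
Tlr6: ttatgaagttagccttagtcaatgaggatg
Tlr7: acctaggacatgccttggtacctgaagttt
The main Tlr4 stretch lies at chr4:66276388-66276417 and the second at chr4:66363220-66363249, both on the plus strand. The Tlr6 stretch lies at chr5:64307967-64307996 and the Tlr7 stretch at chrX:162079649-162079678, both on the minus strand. The second Tlr4 probe is assigned in the files to a cDNA clone and not to the gene's reference transcript. It was well above background on 0 of 10 arrays in red, so it gives no fold, and the main probe stands for Tlr4.

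One lung stood apart and bears on several results. Room air 1 had a Cd14 ratio of 2.16, while the other 4 room air lungs lay between -1.71 and -1.46. Its mean ratio over the 6 cell surface members was 1.16, against -0.07 to 0.23 in the other room air lungs and 0.86 to 0.98 in the smoke-exposed lungs. The receptors are therefore given with all arrays and without room air 1, and so are the counts of the pathway and marker lists. Room air 1 was set apart on values of these same genes. For Cd14 the room air SD was 1.68 with this lung and 0.13 without it. Adjusted p values and intervals without room air 1 thus follow a choice made on the data and overstate certainty.

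With all 10 arrays, 3 of the 10 genes passed an adjusted p of 0.05 in limma, Tlr2, Tlr4 and Tlr7, and each of them rose with smoke. Of all genes tested, 4.96% were called higher. Without room air 1, 6 of the 10 genes were called, Cd14, Tlr1, Tlr2, Tlr4, Tlr6 and Tlr7, each of them higher with smoke, against 6.23% of all genes. With the slide as a block, 4 of the 10 were called, the same 3 and Tlr1, against 7.52% of all genes. For 2 of the 10, Tlr4 and Tlr7, the lowest smoke-exposed lung exceeded the highest room air lung, against 4.61% of all genes. Set against the 4 room air lungs other than room air 1, this held for 6 of the 10, against 6.87% of all genes. These were the same 6 genes that were called without it.

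**Figure D1:**
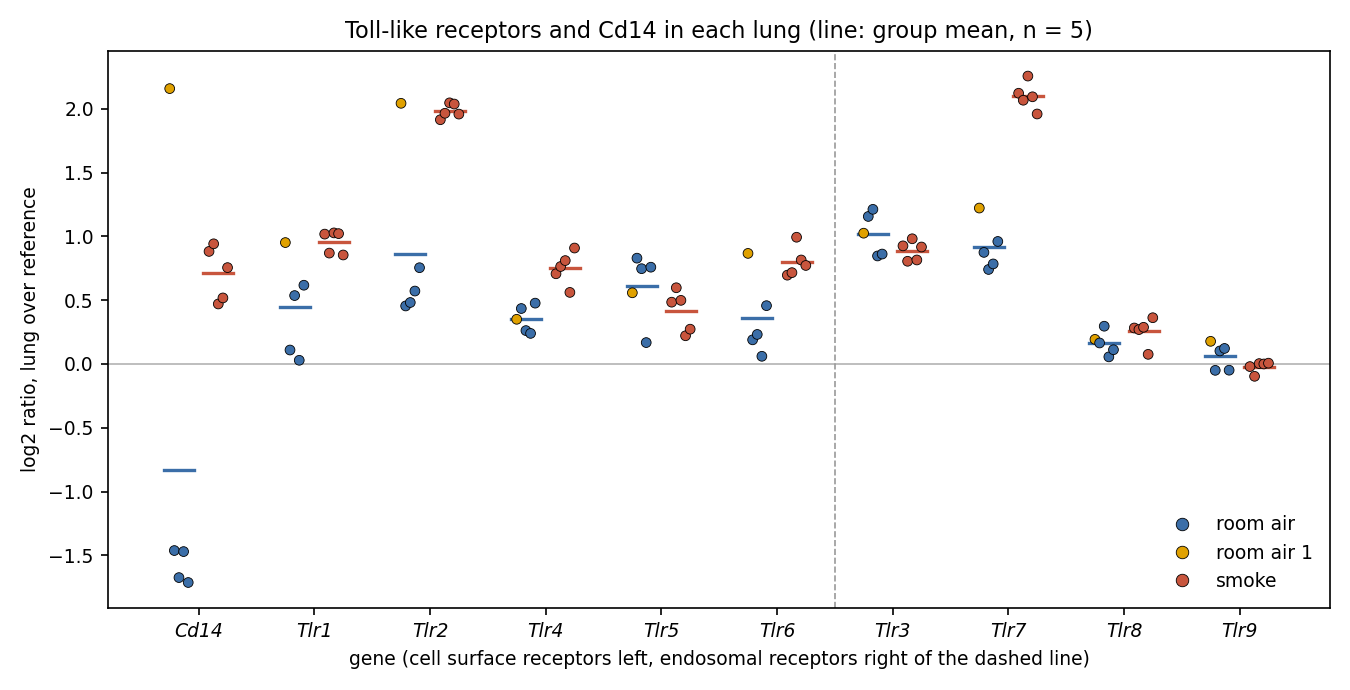
Log2 ratio of lung over reference (vertical axis) for the 10 genes (horizontal axis), with a point for each lung and a line at each group mean, 5 lungs per group. Room air 1, in yellow, lies at 2.16 for Cd14 and 2.04 for Tlr2, near or above the smoke-exposed lungs, and at 0.35 for Tlr4, among the other room air lungs.

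Tlr7, an endosomal receptor for uridine-rich RNA, had the smallest adjusted p of the 10 genes with all arrays, though not without room air 1. Its ratio was 1.22, 0.87, 0.74, 0.78 and 0.96 in room air 1 to 5, and 2.12, 2.07, 2.26, 2.10 and 1.96 in smoke 1 to 5. All smoke-exposed lungs lay above all room air lungs, and room air 1 was the highest control but was still 0.88 below the smoke mean. The group means were 0.92 ± 0.19 and 2.10 ± 0.11 (SD, n = 5 each), a 2.27-fold rise with a 95% confidence interval of 1.98 to 2.61. The adjusted p was 2.14e-05, and without room air 1 it was 9.72e-07 with a 2.40-fold rise. Smoke exceeded room air on 5 of 5 slides, by 0.90 to 1.52. Leaving out each array, or slide 1, kept the difference between 1.14 and 1.26 and kept the call.

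The other endosomal receptors did not pass the threshold with or without room air 1. Tlr3, which binds long base-paired RNA, had a difference of -0.13 (95% confidence interval -0.30 to 0.04, adjusted p = 0.446). Its second probe, at chr8:44181930-44181989, gave -0.11. Tlr9, which binds DNA rich in unmethylated CpG, had a difference of -0.08 (-0.20 to 0.04, adjusted p = 0.528), and the sign was positive, 0.0553 and 0.0145, in 2 fits of the red channel alone. Tlr8, a relative of Tlr7 on the same chromosome, was well above background in red on 1 of 5 room air arrays and 2 of 5 smoke arrays, and its difference of 0.09 rests on spots near background. The intervals of the fit with all arrays leave room for small changes of these 3 genes in either direction. With red alone as processed signal, Tlr8 was 0.60, outside its interval of -0.05 to 0.23, and Tlr3 was -0.26, neither of them called.

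The cell surface receptors that bind lipids were measured beside Cd14. Tlr4, which with its partner Ly96 recognises lipopolysaccharide, had ratios of 0.35, 0.43, 0.26, 0.24 and 0.48 in room air 1 to 5. In smoke 1 to 5 it had 0.71, 0.76, 0.81, 0.56 and 0.91. The groups did not overlap, and room air 1 lay inside the range of the other controls. The rise was 1.32-fold (95% confidence interval 1.18 to 1.47, adjusted p = 0.00585), from a mean of 0.35 ± 0.10 to 0.75 ± 0.13 (SD, n = 5 each). Smoke exceeded room air on 5 of 5 slides, by 0.32 to 0.55. The call was lost with median centring in place of loess, where the difference was 0.30 with an adjusted p of 0.133. Averaged with the second probe, which was not above background, the difference was 0.20 (adjusted p = 0.0168).

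Tlr2 recognises bacterial lipopeptides as a pair with Tlr1 or Tlr6. Its ratio was 2.04 in room air 1 and 0.45, 0.48, 0.57 and 0.75 in room air 2 to 5, and it was 1.92, 1.97, 2.05, 2.04 and 1.96 in smoke 1 to 5. The smoke-exposed lungs were alike, room air 1 lay among them, and the other controls lay well below. With all arrays the rise was 2.18-fold (95% confidence interval 1.47 to 3.22, adjusted p = 0.0221), and without room air 1 it was 2.67-fold (adjusted p = 3.14e-07). The call with all arrays was close to the threshold, since leaving out 7 of the other 9 arrays singly gave an adjusted p between 0.0502 and 0.0588. The room air SD was 0.67 with room air 1 and 0.14 without it.

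This probe was printed in 10 spots on each array, as was the main Tlr4 probe. The SD among the spots of an array had a median of 0.08 for Tlr2 and 0.09 for Tlr4. An array's value is the mean over its 10 spots and varies less than a single spot.

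Tlr1 and Tlr6 are the partners of Tlr2 and neighbours on chromosome 5. The Tlr1 ratio was 0.95 in room air 1 and 0.11, 0.54, 0.03 and 0.62 in room air 2 to 5, against 1.02, 0.87, 1.03, 1.02 and 0.85 with smoke. The Tlr6 ratio was 0.87 in room air 1 and 0.19, 0.23, 0.06 and 0.46 in room air 2 to 5, against 0.70, 0.72, 0.99, 0.82 and 0.77 with smoke. For both genes room air 1 lay inside the range of the smoke-exposed lungs and the other controls lay below it. With all arrays Tlr1 had a difference of 0.51 (95% confidence interval 0.18 to 0.84, adjusted p = 0.0735) and Tlr6 had 0.44 (0.15 to 0.73, adjusted p = 0.0783), neither past the threshold. Without room air 1 both were called, Tlr1 at 1.55-fold (adjusted p = 0.00606) and Tlr6 at 1.48-fold (adjusted p = 0.00176). With the slide as a block Tlr1 was called (adjusted p = 0.0357) and Tlr6 was not (adjusted p = 0.0677).

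Cd14, on chromosome 18, spanned the widest range of the 10 genes. Its ratio was 2.16 in room air 1 and -1.46, -1.68, -1.47 and -1.71 in room air 2 to 5, and it was 0.88, 0.94, 0.47, 0.52 and 0.76 in smoke 1 to 5. Room air 1 was 13.4 times the mean of the other controls and lay above every smoke-exposed lung, by 1.45 over their mean. With all arrays the difference of 1.55 did not pass the threshold (95% confidence interval 0.14 to 2.95, adjusted p = 0.22). Without room air 1 the rise was 4.91-fold (adjusted p = 3.05e-07), with the log2 difference between 2.06 and 2.53 at 95% confidence. On slide 1 smoke was below room air by -1.28 as a log2 difference, and on the other 4 slides it was above by 1.99 to 2.47. The difference in the green reference alone was -0.01 for Cd14 and -0.01 for Tlr2.

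Tlr5, the receptor for bacterial flagellin, differed by -0.20 (95% confidence interval -0.47 to 0.07, adjusted p = 0.482) and overlapped between the groups. Without room air 1 the difference was -0.21 (adjusted p = 0.477). Room air 4 had the lowest ratio of the controls, 0.17, and the other 4 lay between 0.56 and 0.83.

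**Figure D2:**
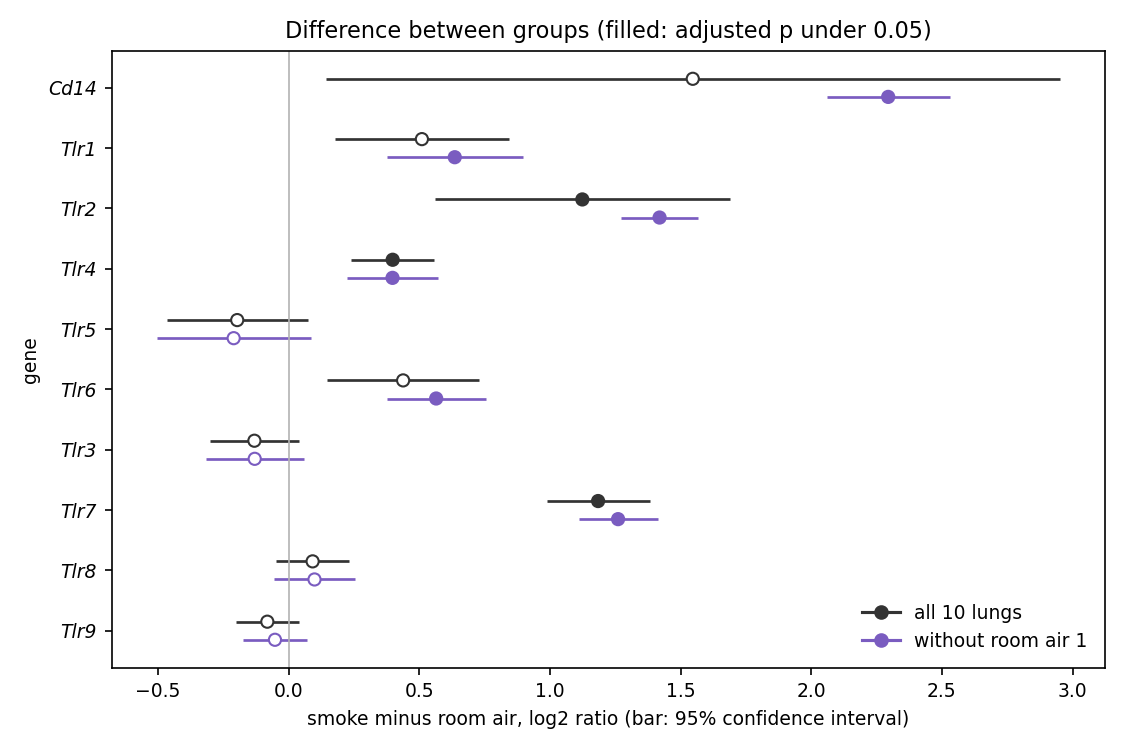
Difference between smoke and room air in log2 ratio (horizontal axis) for the 10 genes (vertical axis), with 95% confidence intervals from limma, for all 10 lungs and for the 9 lungs without room air 1. Filled points passed an adjusted p of 0.05. The Cd14 interval runs from 0.14 to 2.95 with all lungs and from 2.06 to 2.53 without room air 1, while the Tlr4 and Tlr7 points hardly move.

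Both lungs of a replicate number lay on the same slide. The arrays lay on 5 slides scanned on 4 days, with slides 2 and 5 scanned on the same day. Within that day the mean smoke difference was 1.10 for Tlr7, 0.38 for Tlr4, 1.36 for Tlr2 and 2.44 for Cd14. On the day of slide 1, which held room air 1, it was 0.90, 0.36, -0.13 and -1.28 for the same genes. An effect of slide 1 was not separated from that of room air 1. Smoke lay in place 1 and room air in place 2 on every slide, so place and group cannot be told apart.

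Promoters were searched because several receptors moved together. RefSeq promoters of GRCm38.p6, from 250 bases before to 50 after a start, matched 7 of the 10 genes with 9 starts, and Tlr4, Tlr7 and Cd14 were not matched or not used. On both strands, a form of the NF-kB motif (GGG, any 3 letters, then TTCC) was in 3 of the 9 promoters against 5.56% of all 32851. GAGGAA, the core bound by the myeloid factor PU.1, was in 3 of 9 against 28.3%. A form of the interferon response element (GAAA, any 2 letters, then GAAA) was in 1 of 9 against 3.44%, and TGANTCA, the AP-1 motif, was in 1 of 9 against 7.81%. The stretches around the NF-kB matches and around the PU.1 match nearest a Tlr1 start are printed with the match in capitals.
Tlr2: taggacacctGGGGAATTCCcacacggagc
Tlr6: tttatacacgGGGTAATTCCaacgagtacc
Tlr3: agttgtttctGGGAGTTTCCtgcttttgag
Tlr1: ttaaatgttgGAGGAAgtaggagcttgaat
They lie on the minus strand, Tlr2 at chr3:83841762-83841791, Tlr6 at chr5:64960128-64960157, Tlr3 at chr8:45410572-45410601 and Tlr1 at chr5:64933562-64933591. The matches begin at -173, -99, -211 and -23 from the start. Of the 3 genes with an NF-kB match, Tlr2 was called with all arrays, Tlr6 only without room air 1, and Tlr3 in neither fit. The PU.1 matches were in Tlr1, Tlr8 and Tlr9. Tlr1 was called without room air 1 and not with all arrays, and Tlr8 and Tlr9 in neither fit. A match is a stretch of letters and no sign that a factor binds there.

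A list of 10 genes, called partners and chaperones here, was measured next. Some help the receptors bind ligands, fold or reach the endosome. The list also holds Clec7a, Itgam, Cd180 and Ly86, surface proteins that are not dedicated helpers of the 10 members. With smoke 4 of the 10 rose and 1 fell, and the median log2 difference was 0.34, against 0.00 over all genes (a value of -0.0042 to 4 decimals). Over all genes 3.27% were called lower. Clec7a, the beta-glucan receptor dectin-1, rose 3.11-fold (adjusted p = 7.51e-05) and Ly86, the partner of the Toll-like protein Cd180, rose 1.87-fold (adjusted p = 8.56e-05). Ly96, the part of the Tlr4 complex that holds lipopolysaccharide, rose 1.33-fold (adjusted p = 0.00827). Unc93b1, which carries the nucleic acid receptors to endosomes, rose 1.31-fold (adjusted p = 0.00181). Cd36, a scavenger receptor that works with Tlr2 and Tlr6 and is also made by lung endothelium, fell by 0.51 on the log2 scale (adjusted p = 0.00168). For each of these 5 genes the groups did not overlap, room air 1 included, and each was also called without room air 1.

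The genes downstream of the receptors were counted in the same way. None of the 6 adaptors passed in limma (median 0.09), and Myd88, the adaptor of all these Toll-like receptors but Tlr3, named after its values were seen, had a difference of -0.04 (adjusted p = 0.947). Room air 1 had 1.36 for Myd88, the other controls 0.49 to 0.57 and the smoke-exposed lungs 0.58 to 0.78, and without room air 1 the difference was 0.13 (adjusted p = 0.2). With the slide as a block 1 of the 6 was called, Pik3ap1, which links receptors to PI3-kinase (adjusted p = 0.0227). Of 18 kinases and ubiquitin ligases 1 rose, Ikbke, a kinase of the interferon branch, at 1.23-fold (adjusted p = 0.0497), and its groups overlapped. The block also called Tab1 higher (adjusted p = 0.0428) and Traf6 lower (adjusted p = 0.0374) in this list, and Itgam higher (adjusted p = 0.0312) among the partners. Of 10 transcription factors Irf5, which acts below Myd88, rose 1.55-fold (adjusted p = 0.00277) and Jun, a part of AP-1, fell by 0.52 on the log2 scale (adjusted p = 0.002). None of the 10 inhibitors was called with all arrays (median 0.06). Of 14 inflammatory target genes 1 rose, Il12b, the subunit shared by interleukin 12 and interleukin 23, at 1.53-fold (adjusted p = 0.0155). Over the 68 pathway genes measured 7 rose and 2 fell, against 4.96% and 3.27% of all genes, and the median difference was 0.06. With the block 10 of the 68 were called higher and 3 lower, against 7.52% and 6.27% of all genes. The 68 include Ticam2 and Rel, which were well above background in red on 0 of 10 arrays. Tlr11, Tlr12 and Tlr13 were not analysed here.

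Without room air 1 the pathway counts rose to 19 higher and 2 lower of 68, against 6.23% and 4.12% of all genes. The 12 genes called in this fit and not with all arrays without the block were Lbp and Itgam among the partners, Nfkb2 and Relb among the transcription factors, and Tnfaip3 and Tnip1 among the inhibitors, whose median moved to 0.21. The other 6 were Tnf, Il1b, Cxcl1, Cxcl2, Ccl3 and Ccl4. Of the 14 inflammatory target genes 7 were then called higher and the median moved from 0.02 to 0.51. Cxcl1, Ccl4 and Ccl3, chemokines chosen here after their values were seen, had ratios in room air 1 of 1.28, 1.02 and -0.43. The other room air lungs had at most -3.48, -2.73 and -3.31, and the smoke-exposed lungs at most -0.75, -0.40 and -1.14. Room air 1 was thus above every smoke-exposed lung for these 3 genes, as it was for Cd14.

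**Figure D3:**
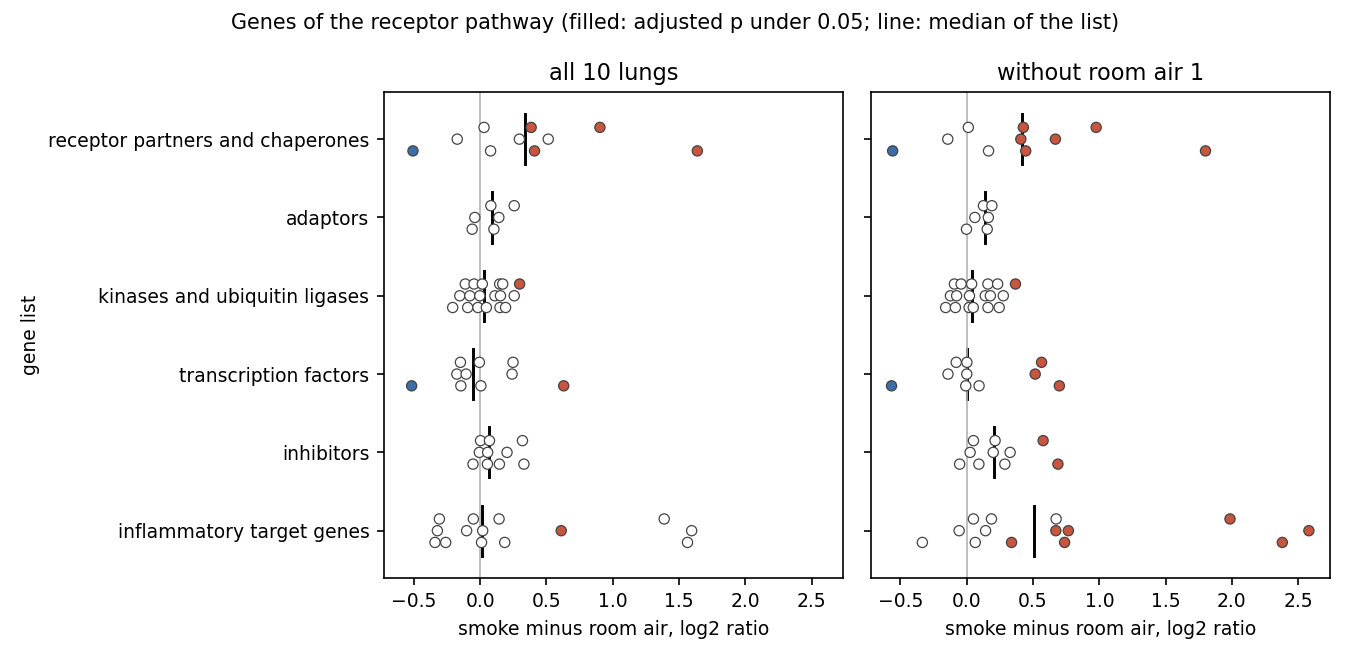
Difference between smoke and room air in log2 ratio (horizontal axis) for 68 genes of the receptor pathway in 6 lists (vertical axis), with all 10 lungs on the left and without room air 1 on the right. Filled points passed an adjusted p of 0.05, red higher and blue lower with smoke, and a line marks the median of each list. The median of the inflammatory target genes moves from 0.02 to 0.51.

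Markers of the cells that carry these receptors also moved. In whole lung, more cells of a type and more RNA per cell cannot be told apart, and the part of the markers in the receptor values was not tested. Of 6 macrophage markers 4 rose with smoke and the others were not called, but with the slide as a block Mertk was called lower (adjusted p = 0.0351). The lysosomal protein Cd68 rose 4.16-fold (adjusted p = 6.92e-09) and Adgre1, an adhesion receptor of macrophages, rose 2.62-fold (adjusted p = 8.4e-07). The mean log2 ratio of the list was 1.12 to 1.22 in room air and 1.85 to 2.02 with smoke, with room air 1 at 1.22. Lyz2, its brightest gene, was not called, and the summed red signal, scaled to each array's 75th percentile, overlapped, at 574 to 804 in room air and 535 to 1080 with smoke.

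Of 8 alveolar macrophage markers 3 rose. Marco, a scavenger receptor, rose 6.05-fold (adjusted p = 0.00248), with a log2 difference of 3.54 in red alone and 0.88 in the green reference (adjusted p = 0.319). Chil3, a chitinase-like protein and the brightest of the list, rose 4.33-fold (adjusted p = 0.000138). The summed red signal was 57.7 to 61.6 in room air and 164 to 206 with smoke, and room air 1 was the highest control at 61.6. The other 5 markers of this list were not called. Of the 8 markers 6 had a positive difference, with a median of 0.30, and Fabp4 and Car4 were lower with smoke. A summed signal weighs bright genes such as Chil3 most, so it does not stand for every marker of the list.

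In the means of the neutrophil and monocyte markers, room air 1 lay among or above the smoke-exposed lungs, although single markers differed. The mean ratio of 9 neutrophil markers was 3.41 in room air 1, 1.89 to 2.21 in the other controls and 2.42 to 2.95 with smoke. The summed red signal of the list was 193 in room air 1, 30.4 to 47.6 in the other controls and 54.4 to 94.0 with smoke. Mmp8, a neutrophil collagenase, rose 2.24-fold (adjusted p = 0.021) and Camp, an antimicrobial peptide, rose 1.51-fold (adjusted p = 0.00881), while S100a9, the brightest, was not called (adjusted p = 0.852). For Camp, room air 1 at 0.83 was below every smoke-exposed lung (0.87 to 1.02). With the block Ltf was called higher (adjusted p = 0.0307). The calls went from 2 to 4 of the 9 without room air 1, adding S100a8 at 1.96-fold (adjusted p = 0.00458) and Ltf at 2.32-fold (adjusted p = 0.0137). The mean of 4 monocyte markers was 1.37 in room air 1, 0.70 to 0.84 in the other controls and 1.15 to 1.59 with smoke. Their summed red signal was 4.61 in room air 1, 1.81 to 2.45 in the other controls and 2.90 to 4.07 with smoke. Of the 4, Cx3cr1, the fractalkine receptor, rose 1.85-fold (adjusted p = 0.0139), and F13a1, the brightest, was not called. For Cx3cr1, room air 1 at 1.28 lay among the other controls (1.02 to 1.81) and below every smoke-exposed lung (1.96 to 2.85). Ccr2 was also called once room air 1 was left out (adjusted p = 0.028). No other marker list changed its calls when room air 1 was left out. Every marker of these 4 lists was well above background in red on at least 1 array.

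**Figure D4:**
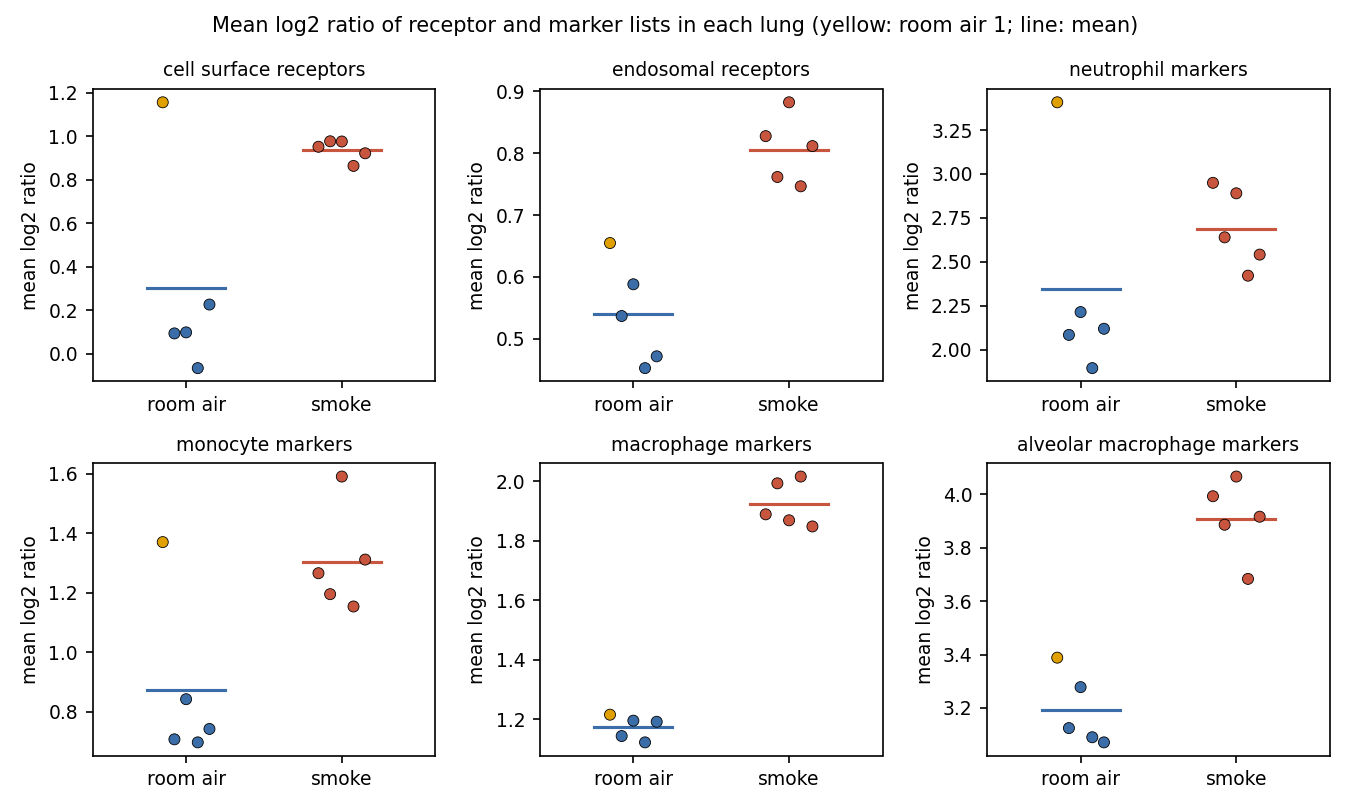
Mean log2 ratio (vertical axis) of the receptor lists and of marker lists in each lung by group (horizontal axis), with room air 1 in yellow and a line at each group mean. Room air 1 lies at 3.41 for the neutrophil markers, above the smoke-exposed lungs at 2.42 to 2.95, and at 1.22 for the macrophage markers, below those at 1.85 to 2.02.

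Of 6 conventional dendritic cell markers 2 rose, Itgae, the brightest, at 1.77-fold (adjusted p = 0.00186) and Flt3 at 1.20-fold (adjusted p = 0.016), and the block called Zbtb46 lower (adjusted p = 0.042). No marker of plasmacytoid dendritic cells, B cells, T cells or lung epithelium was called by limma without the block in 5, 6, 6 and 7 genes. With the slide as a block, the T cell markers Cd3g (adjusted p = 0.00539) and Cd3d (adjusted p = 0.0327) were called higher. Siglech of plasmacytoid dendritic cells (adjusted p = 0.0232) and Aqp5 of epithelium (adjusted p = 0.0266) were called lower. Without the block, the brightest genes of these lists had adjusted p values of 0.165 for Cox6a2, 0.342 for Cd79b, 0.349 for Cd3d and 0.838 for Sftpc. Of 4 endothelial markers Pecam1 fell by 0.41 on the log2 scale (adjusted p = 0.0488), and Cldn5, the brightest, had an adjusted p of 0.654. The block also called Tek lower (adjusted p = 0.0159). In red alone, after quantile normalization, Cldn5 fell by 0.77 (adjusted p = 0.00117), Pecam1 fell by 0.75 (adjusted p = 0.0108) and Tek fell by 0.73 (adjusted p = 0.0388) on the log2 scale. The green signal of these genes differed in the same direction, by -0.66, -0.31 and -0.45, none of them called. The ratio is taken over this green signal, so it shows a smaller fall than red alone. The source of the green difference was not tested. The summed red signal of the 4 was 123 to 163 in room air and 81.0 to 101 with smoke, a red value that is not set against the reference. The genes named for the block, for red alone or without room air 1 only were chosen after their values were seen.

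Genes that varied most like the called receptors were found from the deviations of each array from its group mean, among 17134 genes. These correlations describe 10 arrays and carry no test. Tlr2 was most like Marcksl1, Ccl4 and Tnfaip3, with Pearson's r of 0.992, 0.988 and 0.985. Over the 9 arrays without room air 1 the same pairs had r of 0.768, 0.659 and 0.513, so the likeness rested in large part on that lung. Tlr7 was most like Usp18, Oasl2 and Cd37, at 0.947, 0.940 and 0.936, and at 0.858, 0.854 and 0.921 without room air 1. This likeness is within groups only. The smoke differences of these genes were -0.48, -0.60 and 0.24, none of them called, while Tlr7 rose. Tlr4 was most like Kif14, at 0.978 and 0.980 without room air 1, and like a pair of array entries without a gene symbol, at 0.967 and 0.961.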

How the data were processed

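The authors deposited the scanner output of 10 arrays, with intensity values in red and in green for spots and local background, made with Agilent Feature Extraction 9.5.3.1 per the file headers. The same deposited files hold the scanner's log10 ratio of red over green and its flags. A further table deposited by the authors holds log2 values, each the mean of both channels after subtraction of the median background. Its column medians were 8.03, 7.86, 7.34, 8.03 and 7.84 for room air 1 to 5 and 7.96, 8.06, 7.81, 7.66 and 7.88 for smoke 1 to 5. It has no centring. The deposit does not state which of table and scanner files carries the right group names, and no other source was used here. It was used as an alternative.

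Mean intensities were corrected with normexp in limma 3.58.1 (R 4.3.3, offset 50), and control spots were left out. Ratios were normalized by loess, spots with outlier flags were set missing and replicate spots were averaged for each probe. Probes were named by accession (22951), symbol (6659), synonym (3109) or the file's own name (8455), and the brightest probe in red stood for a gene. Groups were compared with lmFit and eBayes, two-sided, with Benjamini-Hochberg adjustment over 41173 probes. The methods of the study name Wilcoxon tests, whose smallest exact p here is 0.00794.

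Arrays of the same replicate number share a slide. Their deviations from the group means correlated across probes at 0.157 to 0.55, against a median of -0.124 and at most 0.205 between different numbers. Slide 1 had the lowest value, 0.157, below that maximum. The slide was taken to pair the lungs and was fitted as a block. The genes, the lists and the tests were chosen with earlier results of these data known. All 10 genes are named with every probe, as are the pathway genes called with all arrays. Of each marker list, the text names the called genes with the 2 largest differences and the brightest gene. For each called receptor, the 3 genes most like it are given. Of the alternatives 27 were planned and 2 were chosen after seeing the data.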

Additional observations from a re-analysis of the deposited data

Results flagged for a closer look

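In 60 groups of 5 lungs (20 of the receptors, 18 of the called pathway genes and 22 of marker lists), the gap between the outermost lung and its neighbour was set against the range of the group. The gap exceeded 0.71 of the range, a share that chance passes in about 1 in 20 groups, in 8 groups, and room air 1 was the outermost lung in 6 of them. These were Cd14 at 2.16 (others -1.71 to -1.46), Tlr2 at 2.04 (others 0.45 to 0.75), Clec7a at 3.04 (others 2.14 to 2.36) and Il12b at 0.78 (others 0.11 to 0.22). The other 2 were the mean log2 ratio of the neutrophil markers at 3.41 (others 1.89 to 2.21) and of the monocyte markers at 1.37 (others 0.70 to 0.84). With smoke, Il12b in smoke 3 was 1.19 (others 0.75 to 0.85), and Tlr9 in smoke 2 was -0.10 (others -0.02 to 0.01). The causes were not tested.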

How the results depend on the processing

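With all arrays, limma called 3 of the 10 genes, 2906 probes and 9 pathway genes, and 61.7% of the called probes were higher with smoke. Another 29 settings were tried, 2 of them chosen after seeing the data. Tlr7 kept its direction in 28 of 29 settings and its call in 27, and Tlr4 kept its direction in 28 and its call in 25. Tlr2 was called in 16 settings, Tlr1 in 6, Tlr6 in 5 and Cd14 in 5. Every setting that called Tlr6 or Cd14 left out room air 1 or weighted the arrays, with room air 1 weighted least. Tlr8 could not be fitted with the filter on dim probes or in the deposited table.

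The slide as a replicate block called 4 members, adding Tlr1 (0.51), 5019 probes and 13 pathway genes, and changed no other call among the members. The exact Wilcoxon test called 0 members, 0 probes and 0 pathway genes, so Tlr2 (1.12), Tlr4 (0.40) and Tlr7 (1.18) were lost, while 5444 probes had an unadjusted p under 0.05. Its smallest possible p with 5 lungs per group is 0.00794, which gave an adjusted p of 0.115 for Tlr4 and Tlr7. No probe could pass in this setting, so it cannot tell single genes apart. It is counted among the settings above. An adjusted p under 0.01 left 1428 probes and lost Tlr2 (1.12). A fold change over 1.5 left 790 probes and 4 pathway genes and lost Tlr4 (0.40). Median centring left 1434 probes, of which 47.9% were higher, and 5 pathway genes, and lost Tlr4 (0.30). Tlr2 was also lost with the scanner's log ratio (1.16), with red alone as processed signal (1.19, 1752 probes called) and with red alone after quantile normalization (1.13). In these last 2 settings Tlr9 turned to 0.0553 and 0.0145. The mean over all probes of a gene moved Tlr4 to 0.20, still called, through its second probe. Tlr1, not called, was 0.93 with the scanner's log ratio and 0.81 with red alone as processed signal. Tlr8 was 0.54 and 0.60 in the same settings, 0.22 with offset 16 and 0.03 without background correction, against 0.09 in the main fit. With red alone as processed signal Tlr5 was -0.48 and Tlr3 was -0.26, and after quantile normalization Tlr5 was -0.33. Median centring gave -0.33 for Tlr5, -0.21 for Tlr3 and -0.19 for Tlr9. None of these values was called. Array weights called 6 members, adding Tlr1 (0.56), Tlr6 (0.47) and Cd14 (1.95). Room air 1 had the lowest weight, 0.46, and the other arrays had 0.82 to 1.84. The cause was not tested.

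The deposited table under its own labels called 0 members, 16 probes and 0 pathway genes and turned 8 members: Tlr1 to -0.29, Tlr2 to -0.52, Tlr4 to -0.16, Tlr5 to 0.44, Tlr6 to -0.23, Cd14 to -0.72, Tlr3 to 0.68 and Tlr7 to -0.70. Its values average both channels, and its groups are exchanged.

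Leaving out each array, or slide 1, gave 2 to 6 members, 2102 to 3660 probes and 8 to 21 pathway genes. The ranges were 0.40 to 0.64 for Tlr1, 1.02 to 1.44 for Tlr2, 0.36 to 0.45 for Tlr4, -0.31 to -0.14 for Tlr5, 0.36 to 0.59 for Tlr6 and 1.33 to 2.29 for Cd14. They were -0.17 to -0.08 for Tlr3, 1.14 to 1.26 for Tlr7, 0.06 to 0.14 for Tlr8 and -0.11 to -0.05 for Tlr9. Chosen after seeing the data, the block without slide 1 called 6 members, 6088 probes and 27 pathway genes, with Tlr1 at 0.62, Tlr6 at 0.59 and Cd14 at 2.25. Red alone without room air 1, also chosen then, called 6 members and 21 pathway genes, with Tlr1 at 0.71, Tlr6 at 0.58 and Cd14 at 2.26.

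The limits are the 5 lungs per group, the single room air lung that stood apart, whole lung RNA and a single time. Red signal had a median of 1.68 to 2.82 times background, and a dim gene such as Tlr8 was measured close to it. Place on the slide and group cannot be told apart, and every direction rests on the scanner files as assigned. The calls rest on RNA and not on protein.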
